A study of Homo sapiens with 4 samples.

Results

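The 59 genes described here encode the machinery of DNA replication and the cell cycle: the replication fork with its licensing factors and nucleotide supply (36 genes), the cyclins, their kinases and the E2F factors (13), the inhibitors of these kinases (4) and mitotic regulators (6). They were found by their names in the table of deposited intensities, on spots other than controls with a weight above 0 on all 4 arrays, and each was represented by its brightest probe. All 59 listed genes were found, of 17938 genes with a name of their own. THP1 is an established line from a monocytic acute myeloid leukemia that carries the MLL-AF9 fusion. In the knockdown group the fusion transcript was targeted with siRNA-A on 1 array and with siRNA-B on the other, and the control group received control siRNA-1 or control siRNA-2, which gave 2 arrays against 2. The labels number the knockdown siRNAs 3 and 4, and taking 3 as the siRNA-A and 4 as the siRNA-B of the study rests on their order alone. Transfections of both groups took place on days 0, 3 and 6 and RNA was taken on day 8, and the cells grew in 10% serum until day 6 and in 0.5% serum from then on. Each array held a pool of RNA from 5 experiments, so that the spread between the arrays of a group is that between different siRNAs and pools. All 4 arrays lay on the same slide, and position on the slide and treatment cannot be told apart. In such bulk RNA a smaller share of cycling cells and less transcript per cycling cell cannot be told apart either.

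As background, replication origins are licensed in G1 phase, when CDC6 and CDT1 load the MCM helicase, and are fired in S phase by kinases that cyclins activate. RB family proteins hold E2F factors in check until cyclin D and its kinases release them, and E2F factors then drive the genes of the fork and of nucleotide synthesis, while mitotic genes are switched on later through other promoter elements. Cells that leave the cycle as they mature commonly turn down both sets of genes, and leukemia cells keep them on.

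The fusion joins the 5′ part of MLL to the 3′ part of MLLT3, the gene of AF9, and probes for either gene served as the check of the knockdown. The brightest MLLT3 probe had a log2 intensity of 6.82 in the siRNA-A array, 6.87 in the siRNA-B array, 7.59 in the control siRNA-1 array and 7.61 in the control siRNA-2 array. Both knockdown arrays lay below both controls, and the log2 fold change was -0.76 (standard error 0.11, unadjusted p = 8.0e-05, adjusted p = 0.0639 in limma). The brightest MLL probe, which of the 4 MLL probes lay nearest to the 5′ end of the gene, had values of 10.55 and 10.64 after siRNA-A and siRNA-B and of 10.95 and 11.08 in the controls. Its log2 fold change was -0.41 (unadjusted p = 0.0059 in limma, above the threshold of 0.005 used throughout). The probe passed this threshold after quantile normalization (-0.38, unadjusted p = 0.00438), after cyclic loess normalization, with normexp and quantile normalization and without dim probes, and the mean over the MLL probes was -0.12. The other 3 MLL probes had -0.085, -0.027 and 0.048. HOXA9, a homeobox gene kept active by the fusion, had 11.14 after siRNA-A and 11.48 after siRNA-B against 11.86 and 11.89 in the controls, a log2 fold change of -0.56 (standard error 0.14, unadjusted p = 0.00267, adjusted p = 0.294 in limma). The call of HOXA9 was kept after quantile normalization. It was lost with the background-subtracted signal, where the log2 fold change stayed about as large (-0.57 scaled, -0.60 unscaled). The call was also lost without control siRNA-1 (-0.58) or control siRNA-2 (-0.55), again at a similar size. With the mean over probes (-0.43) and without siRNA-A (-0.39) it was lost at a smaller size. In MLLT3, this MLL probe and HOXA9 alike, all 4 arrays fell into the groups that their labels give.

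The test for a difference between knockdown and control arrays was passed by 0 of the DNA replication and cell cycle genes and by few of all genes. In the deposited values 0 of 59 genes were called lower and 0 were called higher at an unadjusted p under 0.005 in limma, where 0.702% of all genes were lower and 0.63% higher. At an unadjusted p under 0.05 there was 1 lower gene, the primase subunit gene PRIM2, and 0 higher genes, beside 4.74% and 3.26% of all genes. After quantile normalization between arrays, 0 genes were called in either direction (0.591% of all genes lower, 0.647% higher), and at an unadjusted p under 0.05 there were 0 lower genes and 1 higher gene, the mitotic kinase gene AURKB, beside 4.16% and 4.64%. An adjusted p under 0.05 was reached by 0.123% of all genes in the deposited values and by 0% after quantile normalization, and by 0 of the 59 on either scale. At the shares of all genes fewer than 1 of 59 genes would be called in each direction, so the counts of 0 do not set these genes apart from others on the arrays.

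The median log2 fold change of the 59 genes was -0.060 in the deposited values, where that of all genes was -0.021, and -0.015 after quantile normalization, where that of all genes was 0.0041. Of the 59 genes 40 had a negative and 19 a positive value in the deposited intensities, a share of 67.8% negative beside 56.2% of all genes. After quantile normalization 33 were negative and 26 positive, 55.9% beside 48.8%. The change of sign concerned 7 genes, all of them negative before and positive after, and the largest deposited difference among them was the -0.25 of the thymidine kinase gene TK1. A log2 fold change within 0.2 of 0 was seen for 53 of the 59 genes (89.8%) and for 79.9% of all genes.

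**Figure D1:**
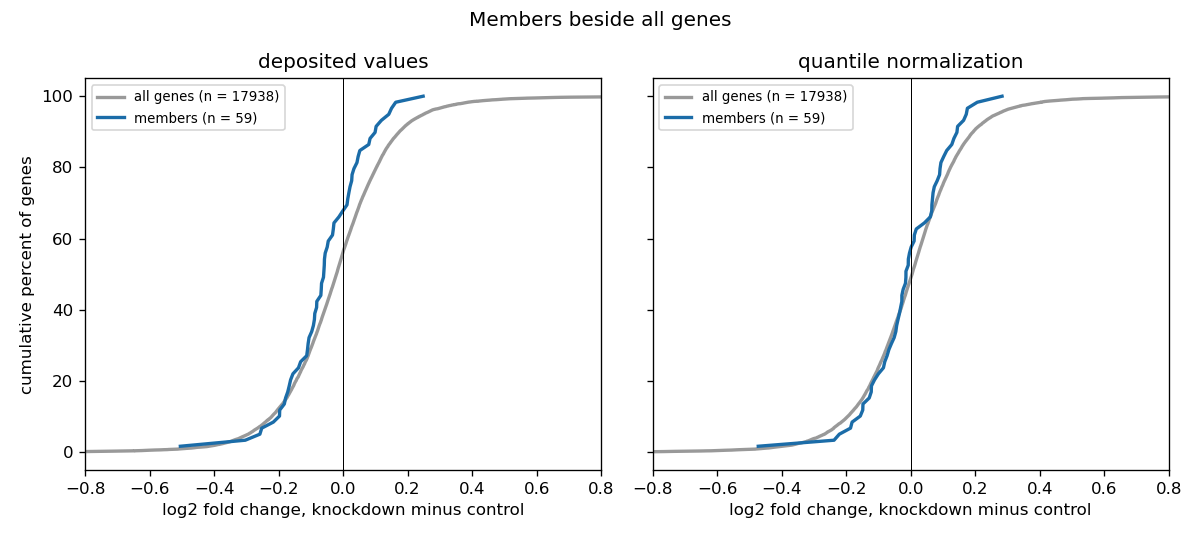
Cumulative percent of genes (vertical axis) by log2 fold change, knockdown minus control (horizontal axis), for the 59 DNA replication and cell cycle genes and all 17938 genes, in deposited values (left) and after quantile normalization (right). The median of the 59 genes lies at -0.060 on the left and at -0.015 on the right, and the tails of the curve for all genes reach farther out.

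A p above the threshold does not show that a transcript did not differ, and the intervals of the differences give what the arrays could resolve. With 2 arrays against 2 the smallest two-sided exact permutation p is 0.333, and smaller p in limma come from a variance that is shared among probes. The median standard error of the log2 fold change was 0.13 for the 59 genes and 0.12 for all genes. For 55 of the 59 genes the 95% interval of the difference lay within a 1.5-fold change in either direction (0.58 on the log2 scale), beside 89.7% of all genes. The exceptions were PRIM2 (-0.97 to -0.039), the polymerase gene POLE (-0.79 to 0.39), the cyclin gene CCND1 (-0.71 to 0.43) and the kinase gene CDK6 (-0.63 to 0.027), for which a change past 1.5-fold lay inside the interval. After quantile normalization the number was 55 as well, with 89.7% of all genes, and CCND3 took the place of CDK6 among the exceptions. On both scales the 55 included CCND2, which was not well above background on either knockdown array. Its interval, from intensities without background correction, does not bound its change.

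**Figure D2:**
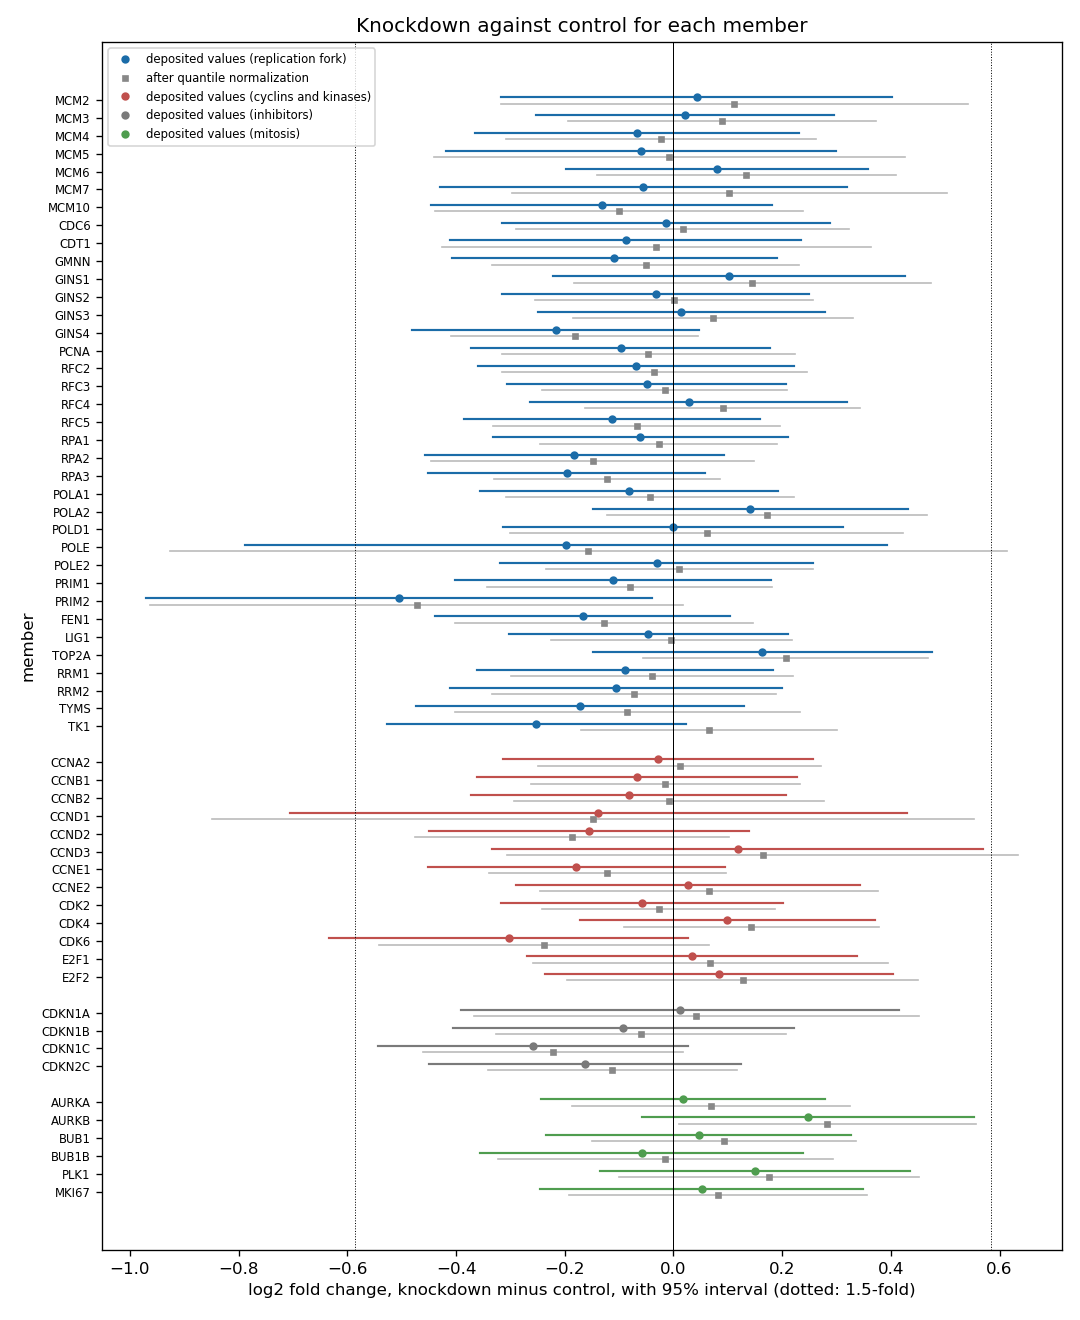
Log2 fold change of each of the 59 genes, knockdown minus control (horizontal axis), with its 95% interval from limma, for deposited values (circles, coloured by group) and after quantile normalization (grey squares); dotted lines mark a 1.5-fold change. The interval of PRIM2 (-0.97 to -0.039) is the only one in deposited values that leaves out 0.

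Values of 9 genes were lower on either knockdown array than on either control array in the deposited values, 15.3% of the 59 beside 21.2% of all genes, and those of 1 gene were higher, 1.69% beside 15% of all genes. The lower genes were GINS4, RPA2, RPA3, PRIM2, FEN1, TK1, CCNE1, CDK6 and CDKN1C, and the higher gene was AURKB. After quantile normalization 7 genes lay below (11.9% beside 19.4% of all genes) and 3 above (5.08% beside 21.6%). On both scales 6 of the lower genes and AURKB were shared, and TOP2A and CDK4 lay above after quantile normalization only. These shares were below those of all genes on either scale, so separation of the groups was no more frequent here than elsewhere on the arrays.

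The promoters of these genes are known for the elements through which the cycle switches them, and 3 are shown for genes of the 2 programs and for AURKB, whose values are described further on. In the RefSeq promoter table (GRCh38.p14, 250 bases before to 50 after the start) 48 of the 59 genes had 62 promoters. An E2F motif (TTTCCCGC, TTTGGCGC or TTTCGCGC, either strand) stood in 32.3% of these and in 2.74% of all 35116 promoters, and within the group of the fork in 18 of 39. The CHR motif (TTTGAA or TTCGAA, either strand) stood in 12.9% beside 16.4% of all promoters, with 4 of the 6 mitotic promoters among them, and CCAAT on either strand in 56.5% beside 34.6%. The 150 bases before the start are printed 5′ to 3′ with the motifs in capitals: E2F1 with 1 E2F motif and 2 CCAAT motifs (chr20:33686386-33686535, minus strand), AURKB with 1 CCAAT motif on the opposite strand (chr17:8210250-8210399, minus strand) and PLK1 with 1 CCAAT and 1 CHR motif (chr16:23678739-23678888, plus strand). A match of letters is a description and shows no binding.
E2F1: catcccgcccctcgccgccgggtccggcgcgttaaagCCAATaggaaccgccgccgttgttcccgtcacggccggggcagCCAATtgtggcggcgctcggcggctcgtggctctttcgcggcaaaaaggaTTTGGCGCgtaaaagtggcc
AURKB: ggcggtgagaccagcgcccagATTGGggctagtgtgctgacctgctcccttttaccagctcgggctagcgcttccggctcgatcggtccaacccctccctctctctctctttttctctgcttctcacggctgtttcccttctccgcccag
PLK1: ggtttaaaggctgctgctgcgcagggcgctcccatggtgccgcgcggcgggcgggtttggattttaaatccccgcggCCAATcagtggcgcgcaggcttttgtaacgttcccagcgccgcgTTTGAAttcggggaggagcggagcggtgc

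The 10 licensing genes lay close to 0, between -0.13 for MCM10, which helps to open the origin, and 0.080 for MCM6, a helicase subunit. The 6 genes of the MCM2 to MCM7 helicase had a median log2 fold change of -0.017 in deposited values and 0.096 after quantile normalization, and 3 of the 6 were negative before it and 2 after it. MCM2 had a log2 intensity of 13.61 after siRNA-A, 13.26 after siRNA-B, 13.23 in control siRNA-1 and 13.56 in control siRNA-2. The siRNA-A array was thus level with control siRNA-2 and the siRNA-B array with control siRNA-1, and the groups overlapped. MCM7 had the same order of pairs, with 16.16 and 15.77 after siRNA-A and siRNA-B and 15.85 and 16.19 in control siRNA-1 and control siRNA-2. The loading factor genes CDC6 (-0.013) and CDT1 (-0.088) and the gene of the CDT1 inhibitor geminin, GMNN (-0.11), were not called. In all 10 licensing genes control siRNA-2 was above control siRNA-1 and siRNA-A above siRNA-B.

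Of 22 genes that act at the moving fork, 17 had a negative and 5 a positive log2 fold change, with a median of -0.065. PRIM2, the large primase subunit gene that helps to lay down the RNA primers, had the most negative value of all 59 genes. Its log2 intensity was 10.77 after siRNA-A, 11.49 after siRNA-B, 11.60 in control siRNA-1 and 11.67 in control siRNA-2. The siRNA-A array stood apart from the 3 others, and the siRNA-B array lay just below control siRNA-1. The log2 fold change was -0.50 (standard error 0.20, unadjusted p = 0.0369, adjusted p = 0.596 in limma), and without the siRNA-A array it was -0.15. The brightest probe lay on chromosome 6 at 57513196 to 57513255 (hg19). A probe at 57512643 to 57512702 also had its lowest value after siRNA-A (7.95, against 8.57 after siRNA-B and 8.47 and 8.52 in the controls; log2 fold change -0.23), whereas another, at 57190782 to 57190841, had 7.74 and 7.69 after knockdown and 7.75 and 7.87 in the controls (-0.097). The probes of PRIM2 thus differed in how far siRNA-A stood apart, the mean over them was -0.28, and whether they also measure closely similar copies was not tested.

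The largest positive value at the fork was that of TOP2A, a topoisomerase that untangles replicated DNA. TOP2A had 11.78 after siRNA-A, 12.00 after siRNA-B, 11.59 in control siRNA-1 and 11.87 in control siRNA-2, so that siRNA-A lay between the controls in the deposited values. After quantile normalization both knockdown arrays of TOP2A lay above both controls, with a log2 fold change of 0.21 (unadjusted p = 0.101 in limma). In the deposited values its log2 fold change was 0.16 (95% interval -0.15 to 0.47, unadjusted p = 0.265 in limma). It was 0.024 without control siRNA-1, 0.056 without siRNA-B, 0.27 without siRNA-A and 0.30 without control siRNA-2. POLE, the catalytic subunit gene of the leading strand polymerase, differed most between the knockdown arrays, with 9.39 after siRNA-A and 8.41 after siRNA-B beside 9.06 and 9.13 in the controls. The siRNA-A array was the highest and the siRNA-B array the lowest of the 4. Its other probe had 7.90 and 7.66 beside 7.70 and 7.69, a spread of less than that of the brightest probe. The clamp gene PCNA, measured by a probe printed on 10 spots, had a log2 fold change of -0.097, and its other probe 0.0011. The other genes of the fork included GINS4 (-0.22), the single strand binding protein genes RPA3 (-0.20) and RPA2 (-0.18), the flap nuclease gene FEN1 (-0.17) and the polymerase alpha subunit gene POLA2 (0.14). The remaining 14, GINS1, GINS2, GINS3, RFC2, RFC3, RFC4, RFC5, RPA1, POLA1, POLD1, POLE2, PRIM1, LIG1 and PCNA, lay between -0.11 and 0.10.

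All 4 genes of nucleotide supply had a negative value in the deposited intensities, and 3 after quantile normalization. TK1, which salvages thymidine, had a log2 intensity of 15.85 after siRNA-A and 15.85 after siRNA-B, and of 15.99 and 16.22 in the controls. Both knockdown arrays lay below both controls, with a log2 fold change of -0.25 (95% interval -0.53 to 0.022, unadjusted p = 0.0672 in limma). After quantile normalization it was 0.065, and after cyclic loess normalization -0.16, so that neither the direction nor the size of TK1 was settled between the scales. TYMS, which makes thymidylate, had -0.17, and the ribonucleotide reductase genes RRM1 and RRM2 had -0.089 and -0.11.

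**Figure D3:**
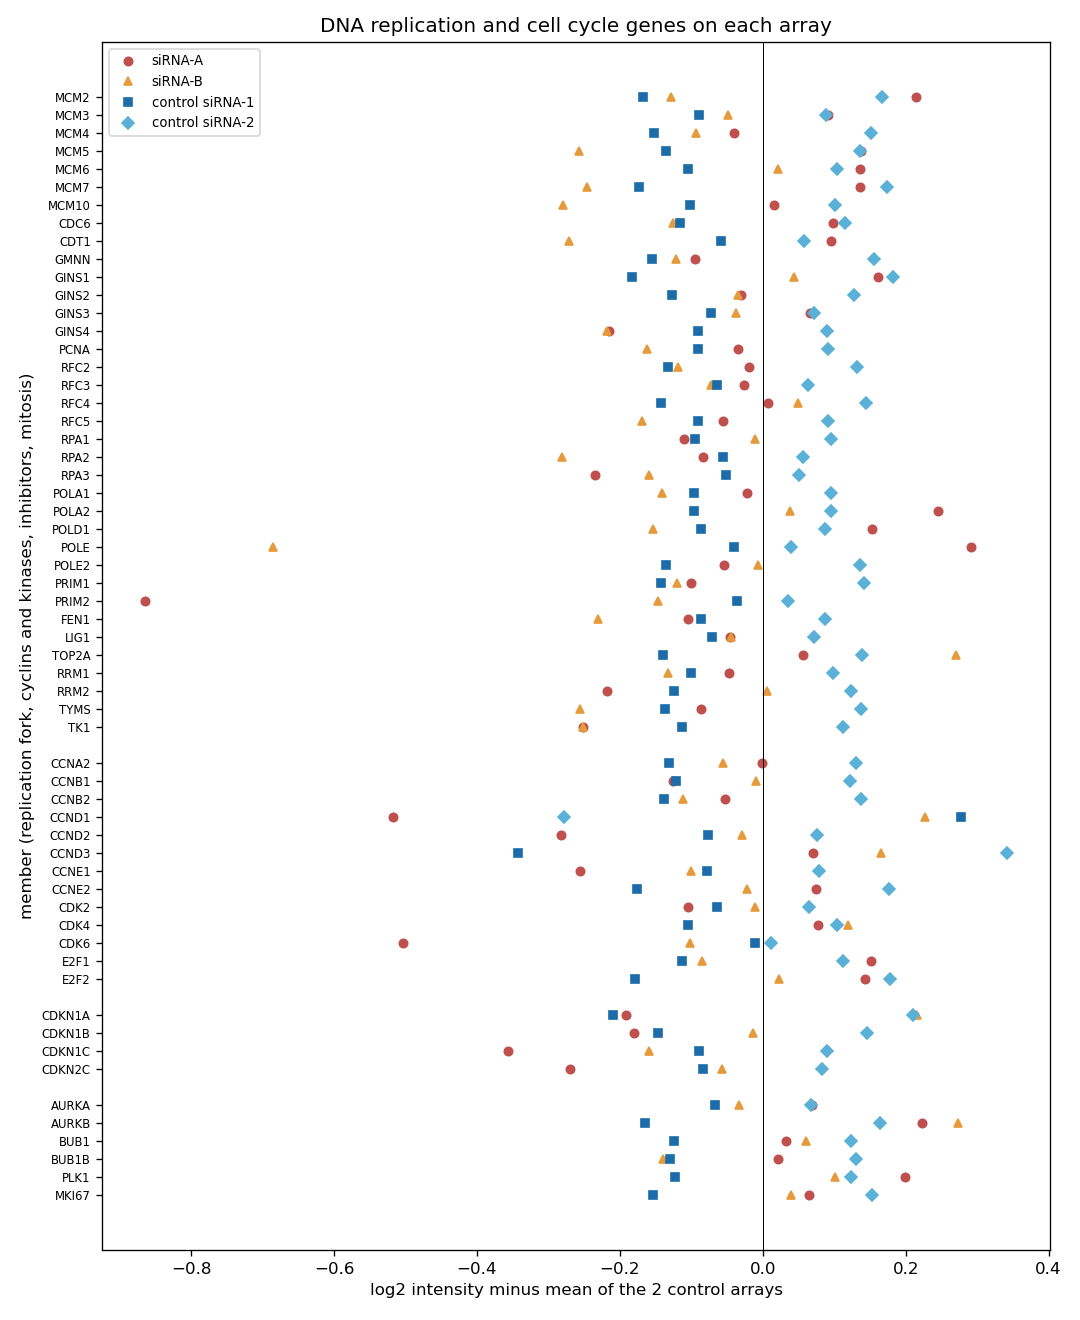
Log2 intensity of each of the 59 genes on each array minus the mean of the 2 control arrays (horizontal axis), with genes ordered by group. The siRNA-A array of PRIM2 and the siRNA-B array of POLE stand apart, and control siRNA-2 lies to the right of control siRNA-1 for every gene but CCND1.

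Among the 13 cyclin, kinase and E2F genes 8 had a negative and 5 a positive value. CDK6, a partner of D-type cyclins in early G1 phase, had the most negative value of the group. It had 13.44 after siRNA-A, 13.84 after siRNA-B, 13.93 in control siRNA-1 and 13.96 in control siRNA-2. As with PRIM2 the siRNA-A array was lowest and the siRNA-B array was nearer to the controls. The log2 fold change was -0.30 (standard error 0.14, unadjusted p = 0.0673, adjusted p = 0.666 in limma), and -0.10 without the siRNA-A array. The related kinase genes CDK4 (0.099) and CDK2 (-0.058) lay nearer to 0.

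The largest positive value was that of CCND3, the D-type cyclin gene, with 12.54 after siRNA-A and 12.64 after siRNA-B between the 12.13 of control siRNA-1 and the 12.82 of control siRNA-2. Its log2 fold change was 0.12 (95% interval -0.33 to 0.57, unadjusted p = 0.565 in limma), and -0.22 without control siRNA-1. CCND1 had 5.97 and 6.72 after knockdown and 6.77 and 6.21 in the controls, with wide overlap. CCND2 was not well above background on either knockdown array and was on both control arrays, with log2 values of 5.29 and 5.54 after knockdown and 5.49 and 5.64 in the controls. SiRNA-B lay above control siRNA-1, and the 95% interval of the difference (-0.45 to 0.14, adjusted p = 0.824 in limma) held 0, so no least fold is given. With the unscaled background-subtracted signal the log2 fold change of CCND2 was -0.80, outside this interval and not called, so the size of its difference depended on the treatment of background. CCND2 was the only 1 of the 59 genes that was not well above background on every array. The S phase cyclin genes CCNE1 (-0.18), CCNE2 (0.027) and CCNA2 (-0.028) and the mitotic cyclin genes CCNB1 (-0.068) and CCNB2 (-0.082) were not called. The factor genes E2F1 and E2F2 had 0.034 and 0.084. E2F1, whose promoter is printed above, had 10.89 and 10.65 after knockdown and 10.63 and 10.85 in the controls, and the groups overlapped.

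Inhibitors of cyclin dependent kinases hold cells in G1 phase. CDKN1A, the gene of p21, had a log2 intensity of 8.62 after siRNA-A, 9.03 after siRNA-B, 8.60 in control siRNA-1 and 9.02 in control siRNA-2, a log2 fold change of 0.012 (95% interval -0.39 to 0.42). Each knockdown array was level with a different control array. CDKN1B, the gene of p27, had 10.34 and 10.51 after siRNA-A and siRNA-B and 10.37 and 10.67 in the controls (-0.092, unadjusted p = 0.521 in limma). CDKN1C, the gene of p57, had 8.75 and 8.95 against 9.02 and 9.20, and both knockdown arrays lay below both controls. Its log2 fold change was -0.26 (95% interval -0.54 to 0.027, unadjusted p = 0.0709, adjusted p = 0.675 in limma). CDKN2C, an inhibitor of CDK4 and CDK6, had 12.88 and 13.09 after knockdown and 13.07 and 13.23 in the controls, with siRNA-B just above control siRNA-1 (-0.16, unadjusted p = 0.229 in limma). For 0 of these 4 genes was a rise called.

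Of the 6 mitotic genes 5 had a positive and 1 a negative value, before and after quantile normalization, and the median was 0.049 and 0.088. These signs depended on single arrays. With 1 array left out, AURKA fell as low as -0.050, BUB1 -0.077 and MKI67 -0.10, and BUB1B rose as high as 0.072. AURKB and PLK1 stayed positive throughout. AURKB, the kinase of the chromosomal passenger complex, had 9.16 after siRNA-A, 9.21 after siRNA-B, 8.77 in control siRNA-1 and 9.10 in control siRNA-2. Both knockdown arrays lay above both controls, but siRNA-A was nearer to control siRNA-2 than the controls were to each other. The log2 fold change was 0.25 (standard error 0.13, unadjusted p = 0.0987, adjusted p = 0.714 in limma) and 0.28 after quantile normalization (unadjusted p = 0.0446). It was 0.084 without control siRNA-1 and 0.41 without control siRNA-2. BUB1B, a spindle checkpoint kinase, had the negative value of the group, with 11.87 and 11.71 after knockdown and 11.72 and 11.98 in the controls, which overlapped (-0.058, unadjusted p = 0.665 in limma). PLK1, whose promoter is printed above, had 0.15, the proliferation marker MKI67 0.052, BUB1 0.047 and AURKA 0.018. The 3 probes of MKI67 gave 0.052, -0.062 and 0.18.

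Arrays of the same group also differed from each other. Control siRNA-2 was above control siRNA-1 in 58 of the 59 genes (98.3%), by a median of 0.23 on the log2 scale, beside 68.9% and 0.068 for all genes, and CCND1 was the exception. After quantile normalization this held for 55 genes (93.2%, median 0.15) beside 52.8% of all genes (0.0089). The order was not particular to the 59 genes. It was shared by 92 of 95 further genes of the same pathways, described below (96.8%, median 0.20). After quantile normalization 84 of the 95 shared it (88.4%, median 0.12). The control siRNA-2 array was the highest of the 4 in 43 of the 59 genes (72.9% beside 38.3% of all genes). It was the lowest in 0 (beside 12.7%), whereas control siRNA-1 was the lowest in 28 (47.5% beside 27.8%). After quantile normalization control siRNA-2 was the highest in 26 (44.1% beside 24.2% of all genes) and the lowest in 0 (beside 22.3%). SiRNA-A was then the highest in 28 (47.5% beside 26.2%), and control siRNA-1 was the lowest in 26 (44.1% beside 23.9%). SiRNA-A was above siRNA-B in 36 of the 59 genes (61.0% beside 34.9% of all genes), and in 46 after quantile normalization (78.0% beside 46.4%). In the 4 inhibitor genes the order was the opposite, with siRNA-B above siRNA-A in each on both scales. The opposite order was also that of all 3 kinase genes in the deposited values. It was not shared throughout by the 4 other inhibitor genes described below, where siRNA-A was above siRNA-B in 2, and in 3 after quantile normalization. The order of the arrays was seen after the values were known and is given as a description without a test.

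**Figure D4:**
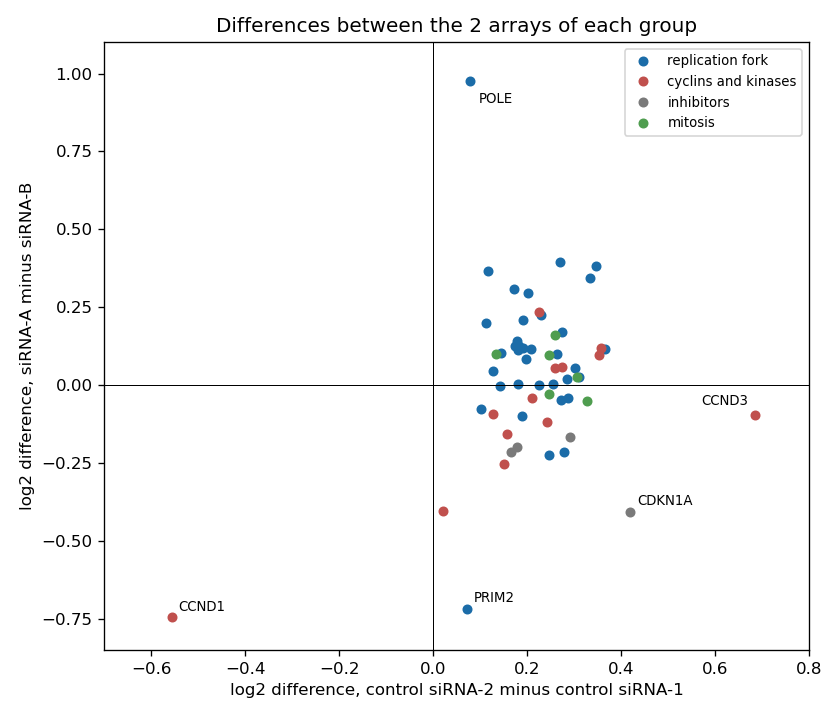
Difference between the arrays of each group on the log2 scale, control siRNA-2 minus control siRNA-1 (horizontal axis) and siRNA-A minus siRNA-B (vertical axis), for each of the 59 genes. All points but CCND1 lie right of 0. The 4 inhibitor genes lie below 0 on the vertical axis, as do other genes, among them the kinase genes CDK2, CDK4 and CDK6.

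The median moved with the choice of control array. The median log2 fold change of the 59 genes was -0.19 without control siRNA-1 and 0.057 without control siRNA-2, where that of all genes was -0.056 and 0.012. With 1 control array left, fewer of all genes were called, so calls in these fits do not describe the 59 genes.

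Beyond the 59 genes, 95 others of the same pathways were measured. In the deposited values 1 (1.05%) was called lower and 0 higher, beside 0.702% and 0.63% of all genes. After quantile normalization 1 (1.05%) was called lower and 0 higher, beside 0.591% and 0.647%. A count of 1 does not set the 95 genes apart from others on the arrays. The median log2 fold change of the 95 genes was -0.017 and 0.019 on these scales.

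The 13 genes of origin recognition and firing ranged from -0.27 for DBF4, the activator of the CDC7 kinase, to 0.24 for MCM9. DBF4 had 9.65 and 9.33 after knockdown and 9.67 and 9.85 in the controls, and MCM9 had 8.44 and 8.95 beside 8.46 and 8.44, a value set by the siRNA-B array. With the mean over probes in place of the brightest, DBF4 had -0.10 and MCM9 0.059. Of the 20 further genes of fork, chromatin and nucleotide supply, DUT, which removes dUTP, had the largest positive value. It had 16.41 and 16.48 after knockdown and 16.42 and 16.25 in the controls. The log2 fold change of DUT was 0.11, and it was 0.24 after quantile normalization and 0.032 with the mean over probes. ASF1A, a histone chaperone, was named after its values were seen and had an unadjusted p = 0.048 in limma (-0.40), with 7.49 after siRNA-A and 8.05 after siRNA-B beside 8.16 and 8.17.

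In the list of RB, E2F and DREAM genes the 17 members ran from -0.32 for LIN37, a subunit of the DREAM complex, to 0.12 for E2F7, a repressing E2F factor. LIN37 had 9.97 after siRNA-A and 9.25 after siRNA-B beside 9.90 and 9.96, so that only the siRNA-B array was low. LIN37 was called without siRNA-A (-0.68) and had 0.036 without siRNA-B. E2F7 had 12.10 and 11.86 beside 11.70 and 12.03, with overlap.

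Among the 14 genes of kinase control CCNA1, the A-type cyclin gene known from germ cells and from myeloid leukemia, had the largest positive value. It had 10.45 after siRNA-A, 10.65 after siRNA-B, 10.12 in control siRNA-1 and 10.32 in control siRNA-2, and both knockdown arrays lay above both controls. The log2 fold change was 0.33 (standard error 0.13, unadjusted p = 0.031, adjusted p = 0.578 in limma) and 0.36 after quantile normalization (unadjusted p = 0.0088), above the threshold on both scales. With normexp and quantile normalization it was just under the threshold (0.36, unadjusted p = 0.00498). MNAT1, a subunit of the kinase that activates CDKs, had the largest negative value of the list (10.69 and 10.97 after knockdown, 10.96 and 11.07 in the controls; -0.19).

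Of the 4 other inhibitor genes CDKN2A had 8.56 and 8.13 after knockdown beside 8.51 and 8.56 (-0.19), and CDKN2B 6.23 and 6.11 beside 6.23 and 5.98 (0.066). With the mean over its probes in place of the brightest, CDKN2A had 0.23. In the 27 further mitotic genes 19 values were positive and 8 negative, 23 and 4 after quantile normalization, with medians of 0.023 and 0.083. NUF2, a kinetochore gene, had 11.65 and 11.73 after knockdown and 11.30 and 11.57 in the controls, with both knockdown arrays above both controls (0.26, unadjusted p = 0.0773 in limma; 0.29 after quantile normalization, unadjusted p = 0.0262). PRC1, which bundles the central spindle, had 14.06 and 13.81 beside 13.94 and 14.24 (-0.16).

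The cell type label was read from markers. All 8 measured monocytic markers, CD14, CD33, ITGAM, CSF1R, SPI1, CEBPA, MNDA and CD4, were well above background on every array. The scanner flag was also met by all 5 T cell markers (CD3D, CD3E, CD3G, CD2 and CD8A), whose log2 values lay between 5.52 and 6.93, by 4 of 5 B cell, 2 of 3 erythroid and 2 of 3 epithelial markers, so the flag did not separate cell types. The maturation marker CD14 rose by 1.05 on the log2 scale (8.39 and 8.71 after knockdown, 7.52 and 7.47 in the controls; adjusted p = 0.0355 in limma) and by 1.09 after quantile normalization (adjusted p = 0.197). The other monocytic markers did not share a direction. MNDA had 0.44 (unadjusted p = 0.0058 in limma, and 0.0032 after quantile normalization), CSF1R 0.19 and ITGAM 0.052. CEBPA had -0.028, SPI1 -0.033, CD33 -0.11 and CD4 -0.13. Both knockdown arrays of MNDA and of CSF1R lay above both controls on both scales. Those of CD4 lay below both controls in the deposited values only. These are the arrays in which 0 of the 59 DNA replication and cell cycle genes were called.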

How the data were processed

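RNA of THP1 cells was measured on 4 single-colour arrays, 2 after knockdown of MLL-AF9 and 2 after control siRNA. Spot values had been extracted with Agilent Feature Extraction 10.5.1.1 per the labels, and the authors deposited the median intensity of each spot without correction for background or for differences between arrays. A quality weight per spot, a score whose making is not given in the sources used here, was deposited by the authors beside it. Of 43118 spots other than controls, 33323 had weights above 0 throughout and were used, and spots of the same probe were averaged to 26219 probes. The log2 values and weights went into limma (version 3.58.1, under R 4.3.3), whose p are two-sided. Calls used an unadjusted p under 0.005, the first of 2 criteria in the study's methods. The second, a t test across replicate spots of a probe, was not applied because such spots were averaged. The p were adjusted by Benjamini-Hochberg across the 26219 probes. Background shares are over the brightest probe of each of 17938 genes. Quantile normalization was run beside the deposited values.

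Per-array values are given for genes with an unadjusted p under 0.05 on either scale, the largest positive and negative value of each group, all 4 inhibitors, and, of 95 further pathway genes in 6 lists, those called and the extremes of each list. Of the genes this selects, 1 is not reported here. Other genes given by array are examples chosen after their values were seen. MCM2, MCM7, POLE, TK1, CCND1, CCND2, E2F1, ASF1A and CD14 are such examples. The genes and lists were chosen with earlier results of these data known. Alternatives were cyclic loess normalization, the signal after background subtraction (unscaled, or scaled to its 75th percentile), normexp with an offset of 50, equal weights, removal of dim probes, a variance trend with intensity, the mean over probes and the omission of each array. Leaving out outlier spots, as flagged on scanning, was an alternative chosen after seeing the data. The markers LYZ, FCGR1A, HBA1 and EPCAM had no analysed probe of that name. The fit was tested on simulated data. The number of arrays limits the precision.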

Additional observations from a re-analysis of the deposited data

How the results depend on the processing

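The count of called genes was 0 in either direction under every alternative that kept all 4 arrays. Of all genes, 0.557% to 0.953% were called lower and 0.284% to 0.814% higher under these alternatives. Genes lower at an unadjusted p under 0.05 in limma numbered 1 in the deposited values. They numbered 0 after quantile or cyclic loess normalization, with the unscaled background-subtracted signal and with the mean over probes. With the scaled background-subtracted signal, with normexp and quantile normalization and with an intensity trend they numbered 2. Lower values at this p were had by 4.16% to 4.99% of all genes under the alternatives just named. Higher genes, 0 in the deposited values, numbered 1 after quantile normalization, cyclic loess normalization, and normexp with quantile normalization. The share of all genes there was 4.42% to 4.88%. Genes with the knockdown group wholly above the controls numbered 1 in the deposited values, 3 after quantile normalization and 4 after cyclic loess normalization. They numbered 3 with the scaled background-subtracted signal and 3 with normexp and quantile normalization. Under these 4 alternatives 16.6% to 21.6% of all genes lay wholly above. The median log2 fold change was -0.015 after quantile normalization, -0.020 after cyclic loess normalization, -0.023 with the scaled background-subtracted signal and -0.011 with normexp and quantile normalization. DUT had 0.24 after quantile normalization and 0.21 after cyclic loess normalization, and changed sign after background subtraction, both scaled (-0.040) and unscaled (-0.071). CDKN2B also changed sign after background subtraction (-0.049 and -0.080), and CDKN2A with the mean over probes (0.23). The cause was not tested.

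Without 1 array in turn, where a lone array is taken to vary as the other group does, 0 to 1 genes were called lower (PRIM2 without siRNA-B, POLE without siRNA-A) and 0 higher. Genes lower at an unadjusted p under 0.05 numbered 0 to 2 and higher genes 0 to 2. With fewer arrays to separate, knockdown values lay wholly below the controls for 10 to 43 of the 59 genes, beside 27.9% to 47% of all genes. They lay wholly above for 1 to 28 genes, beside 21.9% to 38.3% of all genes. The median ranged from -0.19 without control siRNA-1 to 0.057 without control siRNA-2. The log2 fold change ranged from -0.22 to 0.46 for CCND3, -0.20 to 0.22 for CDKN1A, -0.19 to 0.072 for BUB1B, -0.24 to 0.054 for CDKN1B, -0.0093 to 0.50 for MCM9, -0.042 to 0.29 for E2F7, -0.060 to 0.19 for CDKN2B, -0.68 to 0.036 for LIN37 and -0.41 to 0.021 for CDKN2A. It kept its sign but moved more than 1.5 times for AURKB (0.084 to 0.41), TOP2A (0.024 to 0.30), NUF2 (0.12 to 0.39), DUT (0.021 to 0.19), CDKN1C (-0.36 to -0.16), CDKN2C (-0.27 to -0.056), DBF4 (-0.43 to -0.11), MNAT1 (-0.33 to -0.046), PRC1 (-0.30 to -0.0071), CDK6 (-0.50 to -0.10) and PRIM2 (-0.86 to -0.15). Over the alternatives, the omission of arrays included, 17 of the 59 genes kept 1 sign and 42 took both. Of the values of all genes selected by rule under all alternatives 315 kept their direction and side of the threshold, 12 lost and 7 gained a call, and 16 changed sign. No paired analysis was possible because the groups share no replicate number. All but 1 of the 59 genes were well above background on every array.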
